A study of Mus musculus with 12 samples.

Results

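The comparison described here asks whether purification of mesenchymal stromal cells changed gene expression differently in mouse bone marrow cultures and in bone-associated cells. For each gene, the effect of flow sorting in marrow (log2 of BM sorted over BM nonsorted, the sort effect) was set against the effect of magnetic depletion in bone (log2 of BAC depleted over BAC nondepleted, the depletion effect). The sort effect minus the depletion effect is called the difference of effects. It was positive where depletion lowered a gene more, or raised it less, than sorting did. The members are the 1266 genes whose difference of effects passed the test, of 15698 genes tested and 53819 entries in the count table, and all 12 RNA-seq libraries entered the test.

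All mice were wild type (WT in the labels) and no allele or agent was added in any group. Marrow came from hind limbs and pelvis, was plated on collagen I and was used after the first passage, either directly (BM nonsorted, 3 libraries) or after flow sorting for CD51+/Sca-1+ cells without CD31, CD45, Ly6C or F4/80 (BM sorted, 3 libraries). Fragments of hind-limb bone were treated with collagenase I to release bone-associated cells (BAC), which were left undepleted (BAC nondepleted, 3 libraries) or magnetically freed of cells with CD45, Ly6C or F4/80 (BAC depleted, 3 libraries). The labels describe a hypoxic culture in alpha MEM without ascorbic acid. The sources used here do not give the age, sex or pooling of the mice, or the time for which bone-associated cells were cultured. The sort also selects for CD51 and Sca-1, which the depletion does not, so compartment, tissue digestion and purification method cannot be told apart. Nothing in the labels states that the 3 libraries of a group came from separate mice or cultures, so p-values measure the spread between these libraries, which may be technical. In BAC depleted, however, replicate 1 differed in sex-linked RNA from replicates 2 and 3 (values below), so the spread of that group is not technical alone.

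Mesenchymal stromal cells are adherent cells that can form bone, cartilage and fat and that feed blood formation through secreted factors. Primary cultures of them carry macrophages and other blood cells, which are removed by antibodies to surface proteins such as CD45, found on nearly all white blood cells, and F4/80, found on mouse macrophages. In a bulk library a gene falls after purification if the removed cells carried it, or if the remaining cells express less of it, and fewer cells of a type and less RNA per cell cannot be told apart.

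Library totals lay between 27937709 and 32164725 counts. The macrophage list was low in both purified groups. Its 20 tested markers summed to 18.6 to 50.8 CPM (counts scaled to a common library size) in BM sorted and 26.6 to 75.8 CPM in BAC depleted, against 5940 to 6833 CPM in BM nonsorted and 14990 to 17150 CPM in BAC nondepleted. Of these markers, Aif1 was at 0 in BM sorted, and 8 were at 0 in BAC depleted (Aif1, C1qa, C1qb, Cx3cr1, Fcgr1, Itgam, Msr1 and Tyrobp). BAC depleted was the least uniform group: its libraries correlated with each other at 0.94 to 0.947 (Pearson's r of log2 CPM across genes, which are not independent replicates), against at least 0.965 within the other groups. Replicate 1 of BAC depleted stood apart from the other 11 libraries in sex-linked RNA, with 43406 counts of Xist against at most 16 and no Ddx3y. Replicate 3 of that group held 101200 CPM of Thbs1, the adhesive glycoprotein thrombospondin 1, against 13160 and 28970 CPM in replicates 1 and 2. Results without each library are given below.

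Of the 15698 genes tested, 1266 (8.06%) differed in their purification effect at an adjusted p under 0.05 (edgeR's quasi-likelihood test, Benjamini-Hochberg adjustment over all genes tested). The difference was positive for 797 genes (5.08%) and negative for 469 (2.99%). It was at least 2-fold in 842 of the 1266 genes and at least 4-fold in 468. The median over all genes tested was -0.06 on the log2 scale. The depletion effect was the larger of the 2 in size for 1199 of the 1266 genes, with a median size of 1.5 for depletion and 0.218 for sorting (log2). In 618 of the genes with a positive difference and 420 of those with a negative one, only the depletion effect passed its own test. Both effects passed in the same direction in 164 and 15 genes. They passed in opposite directions in 6 genes. Among these, Slc16a1, which carries lactate and pyruvate across the membrane, averaged 64.4 CPM in BM sorted, 39.3 in BM nonsorted, 27.4 in BAC depleted and 51.7 in BAC nondepleted, so sorting raised it (0.71, adjusted p = 0.00744) and depletion lowered it (-0.92, adjusted p = 0.000568). The other 5, chosen like Slc16a1 after their values were seen, were Mogs, 2410006H16Rik and Ppp1r3g with a positive difference and Rnd2 and H1f2 with a negative one.

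**Figure D1:**
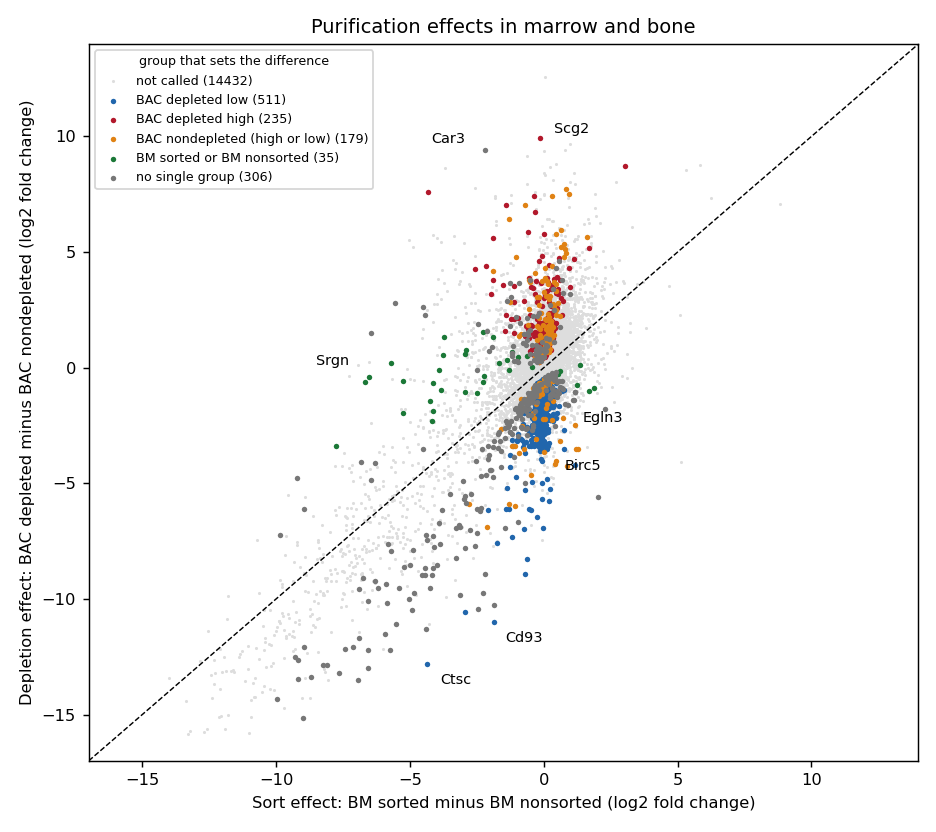
Sort effect (x axis, log2 fold change) against depletion effect (y axis, log2 fold change) for 15698 genes; the dashed line marks equal effects and colours mark the group that sets the difference in the 1266 called genes. Most called genes lie near 0 on the x axis and far from 0 on the y axis.

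Which group sets a difference was read from the 4 group means of log2 CPM. A group was taken to set it where its mean lay outside the range of the other 3 means by more than that range is wide. The direction of the difference follows from the group by arithmetic, and the counts use the values that were tested, so they are a description. BAC depleted set 746 of the 1266 genes (58.9%), whereas it set 26.4% of all genes tested by the same rule. It was low in 511 (40.4%, against 13.2% of all genes tested) and high in 235 (18.6%, also against 13.2%). BAC nondepleted set 179 (14.1%), 59 high and 120 low, against 13.7% of all genes tested. BM sorted set 30 (2.37%), 27 low and 3 high, against 4.53% of all genes tested. BM nonsorted set 5 (0.395%), 3 low and 2 high, against 2.54%. No single group set the other 306 (24.2%), against 52.9% of all genes tested.

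**Figure D2:**
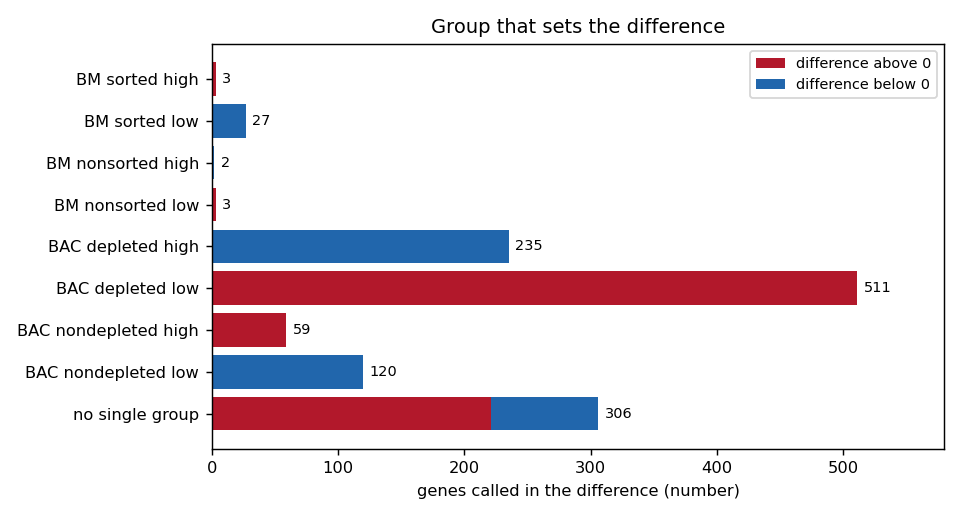
Number of called genes (x axis) by the group that sets the difference (y axis); red is a positive and blue a negative difference of effects. BAC depleted leads with 511 low and 235 high genes, and BM nonsorted holds 5 in all.

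Genes of mitosis had positive differences throughout. Of 25 mitosis genes tested, 19 had a higher difference (76%, beside 5.08% of all genes tested) and 0 a lower one, and the list median was 2.51 against -0.06 for all genes. Depletion lowered all 25, with a median effect of -2.63, while the median sort effect was -0.14. In each of the 25 genes the 3 BAC depleted libraries lay below all 9 other libraries, a placing seen in 12.2% of all genes tested. Birc5 (survivin), which holds chromosome passenger proteins at the centromere and inhibits cell death, was at 0.859, 2.9 and 0.667 CPM in BAC depleted. It stood at 20.5, 13.8 and 14.1 CPM in BAC nondepleted, 22.4, 25.0 and 34.2 in BM sorted and 30.9, 31.7 and 25.8 in BM nonsorted. The 3 BAC depleted values were far below the rest and the 2 marrow groups overlapped. The difference of effects was 3.33 ± 0.61 (SE; adjusted p = 0.0131), with a sort effect of -0.12 and a depletion effect of -3.44. Bub1, a kinase of the spindle checkpoint, behaved alike at 0.731, 3.32 and 1.38 CPM in BAC depleted against 18.03 to 20.51 CPM in BAC nondepleted and 28.4 to 51.3 CPM in the marrow groups. Mki67, which coats mitotic chromosomes, was at 4.23, 23.9 and 6.71 CPM in BAC depleted and between 103.8 and 194.8 CPM in the other 9 libraries. Replicate 2 was the highest of the BAC depleted libraries for all 3 genes. The choice of Bub1, Mki67 and Ccnb2, whose promoter follows, was made after seeing their values. The 6 members that did not pass had differences of 1.28 (Cdk1) to 2.19 (Ccnb1).

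The members moved together, so their promoters are shown for the letters known in cell-cycle promoters: CCAAT, bound by the factor NF-Y, and TTTGAA, the cell-cycle genes homology region. Sequences are the 250 bases before the start site in RefSeq (GRCm38.p6), 5′ to 3′ on the strand of the gene, with matches to CCAAT or TTTGAA on either strand in capitals; the motifs do not overlap each other. Bub1 lies at chr2:127831860-127832109 (minus strand), Ccnb2 at chr9:70421555-70421804 (minus) and Birc5 at chr11:117848987-117849236 (plus).
Bub1: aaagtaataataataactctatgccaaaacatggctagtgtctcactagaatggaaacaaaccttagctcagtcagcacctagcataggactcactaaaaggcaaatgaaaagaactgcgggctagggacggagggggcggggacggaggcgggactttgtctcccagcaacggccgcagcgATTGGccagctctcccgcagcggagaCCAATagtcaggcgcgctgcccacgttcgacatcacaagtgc
Ccnb2: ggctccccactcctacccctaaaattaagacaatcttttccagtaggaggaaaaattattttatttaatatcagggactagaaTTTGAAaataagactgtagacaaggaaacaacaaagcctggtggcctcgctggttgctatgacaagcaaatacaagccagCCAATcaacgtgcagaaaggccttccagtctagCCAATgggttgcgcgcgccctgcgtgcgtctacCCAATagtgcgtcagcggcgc
Birc5: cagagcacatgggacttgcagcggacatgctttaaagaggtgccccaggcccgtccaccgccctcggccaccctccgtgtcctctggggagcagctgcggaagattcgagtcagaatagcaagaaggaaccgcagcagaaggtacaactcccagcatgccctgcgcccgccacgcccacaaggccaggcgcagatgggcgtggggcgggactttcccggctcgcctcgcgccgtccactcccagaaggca
CCAAT was found in 19 of 23 mitosis promoters (82.6%, from 22 of the 25 genes) and in 33.8% of all 32851 promoters of this length. TTTGAA was found in 8 of 23 (34.8%) and in 16% of all. Bub1 held CCAAT 2 times, Ccnb2 held CCAAT 3 times and TTTGAA once, and the Birc5 window held neither. A match describes the letters only.

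Genes of DNA replication followed the same pattern at a smaller size: 14 of 22 had a higher difference (63.6%, beside 5.08% of all genes), 0 a lower one, with a median of 1.2, and 19 of the 22 lay below all 9 other libraries in BAC depleted. Tk1, the salvage enzyme thymidine kinase, was at 1.81, 2.69 and 1.62 CPM in BAC depleted, 24.1, 17.7 and 16.2 in BAC nondepleted, 24.5, 20.9 and 26.5 in BM sorted and 24.5, 26.4 and 18.1 in BM nonsorted. Only the BAC depleted libraries stood apart. Its difference was 3.30 ± 0.32 (adjusted p = 0.000901). Mcm5, a subunit of the replicative helicase, differed by 3.0 (adjusted p = 0.0144) and Uhrf1, which recruits the maintenance DNA methyltransferase, by 2.32 (adjusted p = 0.00534); the choice of both was made after seeing their values.

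The hypoxia and glycolysis list was mixed in what set it. Of 30 genes tested, 10 had a higher difference (33.3%, beside 5.08% of all genes) and 0 a lower one (median 0.98). Egln3, the oxygen-dependent prolyl hydroxylase that marks HIF-1α for degradation, was at 11.4, 12.6 and 12.5 CPM in BAC depleted and at 49.5, 80.6 and 31.1 CPM in BAC nondepleted. BM sorted gave 116, 84.5 and 89.0 CPM, and BM nonsorted 78.1, 84.6 and 78.1. BAC depleted lay below all other libraries. The difference was 2.41 ± 0.39 (adjusted p = 0.00795). The glycolytic enzyme Gapdh behaved the same way at 312.5 to 511.5 CPM in BAC depleted and 782.9 to 1375 CPM elsewhere, with a difference of 1.28 (adjusted p = 0.0221). Car9, a membrane carbonic anhydrase induced by hypoxia, was set by the other bone group: it reached 953, 645 and 471 CPM in BAC nondepleted, against 76.5, 6.75 and 31.2 in BAC depleted, 7.45, 11.0 and 9.07 in BM sorted and 5.29, 7.44 and 7.78 in BM nonsorted. Its difference was 4.60 ± 0.94 (adjusted p = 0.0194). Slc2a3, a glucose transporter, and Hilpda, a lipid droplet protein, were set by a high BM sorted mean, 30.1 CPM against 5.11 to 10.3 for Slc2a3 and 24.2 CPM against 8.56 to 14.5 for Hilpda. The choice of Gapdh, Slc2a3 and Hilpda was made after their values were seen. The Egln3 promoter, chr12:54203875-54204124 (minus strand), holds the core letters of the hypoxia response element, ACGTG, which are in capitals.
Egln3: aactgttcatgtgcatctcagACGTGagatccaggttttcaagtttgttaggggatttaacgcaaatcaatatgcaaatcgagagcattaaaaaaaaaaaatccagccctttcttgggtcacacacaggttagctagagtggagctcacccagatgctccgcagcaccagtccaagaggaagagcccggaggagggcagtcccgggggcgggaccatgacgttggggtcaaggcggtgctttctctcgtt
ACGTG was found in 17 of 40 promoters of the list (42.5%, from 27 of the 30 genes) and in 16.6% of all promoters, both strands counted.

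Cd93, a C-type lectin-like receptor of endothelial and myeloid cells, had the largest positive difference of any called gene. It was at 0.127 CPM, 0.283 CPM and a value just under the first in BAC depleted, 396, 413 and 302 in BAC nondepleted, 29.4, 39.6 and 78.7 in BM sorted and 192, 170 and 170 in BM nonsorted. The groups did not overlap. Both effects passed and both were negative, but depletion lowered Cd93 by far more (-10.98) than sorting did (-1.85), a difference of 9.13 ± 0.58 (adjusted p = 0.000259). Ctsc, the lysosomal protease that activates serine proteases of immune cells, was at 0.127, 0.0354 and 0.0 CPM in BAC depleted and 4.93, 10.7 and 12.6 CPM in BM sorted, with a difference of 8.44 ± 0.72. Fcer1g, the signalling chain of Fc receptors, varied within BM sorted at 36.4, 7.31 and 2.39 CPM and was at most 0.413 CPM in BAC depleted (difference 7.66 ± 1.33).

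The next genes by size, Slfn2 (7.63), Alox5, which makes leukotrienes (6.26), Spn, the leukocyte sialophorin CD43 (5.81), Cd244a, a receptor of natural killer cells (5.69), and Glipr1 (5.61), were all set by a low BAC depleted mean. Glipr1 was at 1.08, 0.707 and a still lower CPM in BAC depleted, 29.7, 37.4 and 35.8 in BAC nondepleted and between 106 and 138 CPM in the 6 marrow libraries, and its sort effect was -0.08 (adjusted p = 0.963). Of the endothelial markers, 1 of 9 tested passed, which was Cd93 (11.1%, near the 8.06% of all genes called in either direction). The list summed to 37.3 to 87.0 CPM in BM sorted and 11.4 to 54.7 CPM in BAC depleted, and Cdh5, the endothelial cadherin, was at or below 0.738 CPM in every library. Cd93 itself made up 29.4 to 78.7 CPM of the BM sorted sums and at most 0.283 CPM of those in BAC depleted. The list median was -1.08, opposite in sign to Cd93, and the 8 members that did not pass had differences of -4.89 to 2.07. The part of endothelial or myeloid cells in the Cd93 result was not tested.

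Of the macrophage markers, 2 of 20 had a higher difference (Fcer1g and Mrc1) and 0 a lower one, 10% of the list beside 5.08% of all genes. The list median was 2.75. Depletion lowered 20 and sorting 19 of the 20. In 11 of them at least 1 group held 3 counts or fewer, where a fitted value depends on the prior count. Mrc1, the mannose receptor, was at 1.58, 1.11 and 1.44 CPM in BM sorted and 0.318, 0.389 and 0.833 CPM in BAC depleted, after 544.3 to 865.2 and 1570 to 2544 CPM before purification. Its difference of 3.10 (adjusted p = 0.00605) thus lies between a pair of large falls. Laptm5, a lysosomal protein of blood cells, did not pass (2.85, adjusted p = 0.0553). Such double falls were common among the genes that no single group set: of the 221 with a positive difference, both effects were negative and passed in 138.

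Tnfrsf11a, the receptor RANK on osteoclast precursors, was among these. It had 0 counts in the 3 BAC depleted libraries against 50.3, 47.6 and 47.8 CPM in BAC nondepleted, at least 1360-fold higher with a floor of 3 counts over the group, and 0.101, 0.329 and 0.214 CPM in BM sorted against 30.0, 26.3 and 24.9 in BM nonsorted. The chemokine Ccl7, which draws monocytes, was at 4.77, 10.6 and 20.8 CPM in BAC depleted, 400, 414 and 317 in BAC nondepleted, 39.3, 50.5 and 52.3 in BM sorted and 95.3, 74.2 and 58.6 in BM nonsorted. The bone groups lay on both sides of the marrow groups, and the difference was 4.29 ± 0.60 (adjusted p = 0.00428). Ccl2, another chemokine for monocytes, chosen after its values were seen, also passed (2.62, adjusted p = 0.0334), and Ccl6 passed the other way, so 2 of 15 inflammatory genes were higher (13.3%, beside 5.08% of all genes) and 1 lower (6.67%, beside 2.99%).

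**Figure D3:**
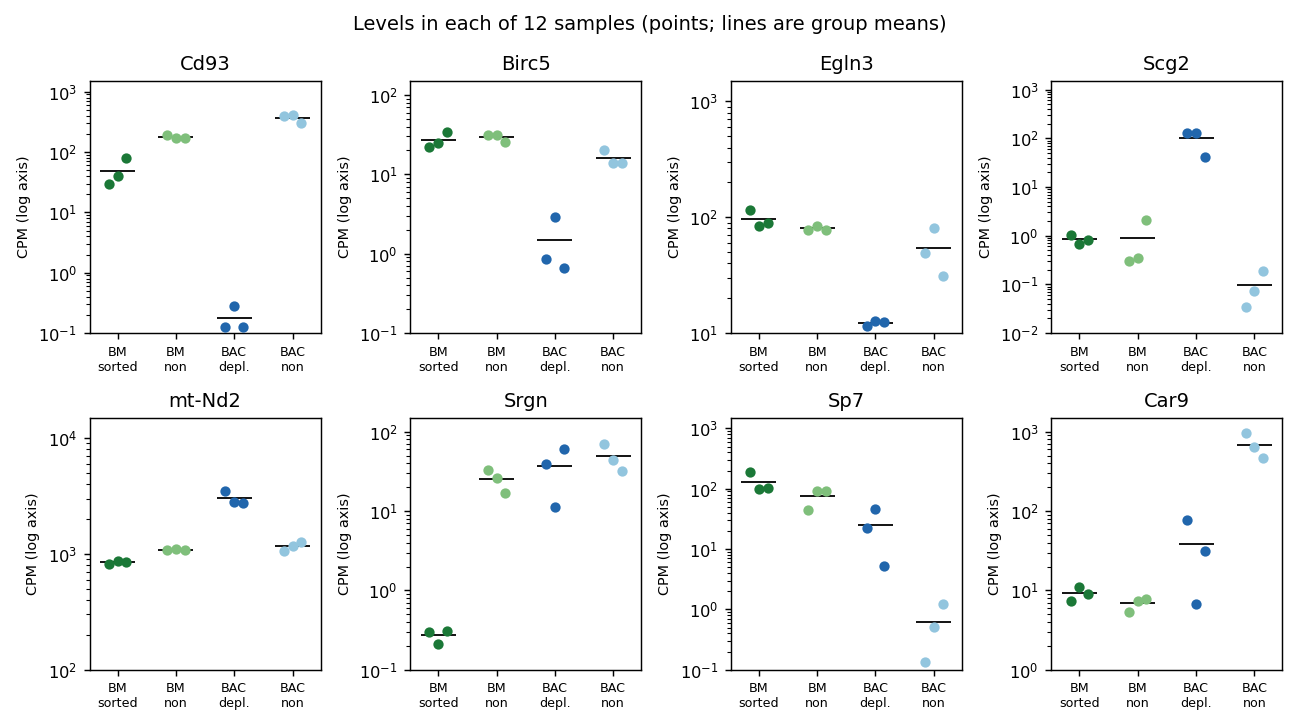
CPM in each of the 12 libraries (points, log axis) for 8 genes by group (x axis); horizontal lines are group means. BAC depleted lies apart for Cd93, Birc5, Egln3, Scg2 and mt-Nd2, BM sorted for Srgn, and BAC nondepleted for Sp7 and Car9.

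A high BAC depleted mean set the largest group of negative differences, 235 genes (18.6% of those called, beside 13.2% of all genes tested). Scg2 (secretogranin II), a granule protein of neuroendocrine cells, was at 127, 130 and 42.1 CPM in BAC depleted and at most 2.08 CPM in the other 9 libraries. The sort effect was -0.13 (adjusted p = 0.972) and depletion raised it by 9.95, a difference of -10.09 ± 1.2 (adjusted p = 0.00237). BAC nondepleted held 1, 2 and 5 counts of Scg2, so the size of this rise rests on few counts. No other tested member of the secretory granule list had a negative difference that passed. Pcsk2, a prohormone convertase, had a positive one (4.74 ± 1.09), set by BAC nondepleted at 26.1, 13.2 and 3.51 CPM against at most 1.5 CPM elsewhere.

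Mitochondrially encoded genes were the negative set with the highest share of calls: 6 of the 7 tested were lower (85.7%, beside 2.99% of all genes), with a median of -1.25, and all 7 lay above all 9 other libraries in BAC depleted, a placing seen in 11.3% of all genes. mt-Nd2, a subunit of respiratory complex I, was at 3490, 2790 and 2760 CPM in BAC depleted, 1060, 1170 and 1280 in BAC nondepleted, 812, 873 and 848 in BM sorted and 1080, 1100 and 1080 in BM nonsorted. Its difference was -1.72 ± 0.20 (adjusted p = 0.00224). Of the 13 list members, 5 had 0 counts in each group, so they add nothing to the share of counts. Mitochondrially encoded genes took 1.82% to 2.62% of the counts in BAC depleted and at most 1.36% in any other library. This share is also used as a sign of RNA quality or cell damage, and its part in the results was not tested. mt-Co1, a subunit of complex IV, did not pass (-0.59, adjusted p = 0.159).

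Cartilage genes had a median of -3.04, and 3 of 15 had a lower difference (20%, beside 2.99% of all genes), with 0 higher. Col9a1, a collagen of cartilage fibrils, was at 15.2, 54.0 and 51.3 CPM in BAC depleted and at most 0.509 CPM elsewhere. BM sorted held 3 counts of it in all, so the ratio of BM nonsorted to BM sorted was 2.93 with a 95% counting interval of 0.731 to 16.8, and the fitted difference of -8.46 (adjusted p = 0.0218) depends on the prior count. Col9a3, a second chain of the same collagen, was at 28.8, 51.9 and 143 CPM against at most 2.17 CPM in the other groups (-6.47 ± 1.15). Col11a2, a fibril collagen chosen after its values were seen, was at 98.2, 100.7 and 359.7 CPM against at most 17.4 CPM (-4.23). The third, Matn1, had 0 counts in BM sorted and at most 0.672 CPM in any library.

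Other genes set by a high BAC depleted mean had narrower or wider spreads. Fzd9, a Wnt receptor, was at 55.5, 54.8 and 64.5 CPM in BAC depleted, against at most 2.05 CPM in all others except 13.9 CPM in replicate 3 of BM nonsorted (-7.51 ± 1.67). Il34, a ligand of the CSF-1 receptor and the only called member of 14 niche factors (7.14%, beside 2.99% of all genes called lower), was at 71.4, 286 and 181 CPM against at most 16.1 CPM (-3.45 ± 0.69). Gdf10, a member of the TGF-β superfamily, was at 157, 316 and 54.2 CPM against at most 2.35 CPM (-5.71 ± 1.52, adjusted p = 0.0478). Stk26, a kinase of the germinal centre kinase family, reached 16.9, 73.4 and 16.3 CPM (-6.54 ± 1.02), and Gsn, the actin-severing protein gelsolin, 4570, 2250 and 1790 CPM against 573 to 932 CPM (-2.10 ± 0.45).

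A few large negative values came with a wide spread within BAC depleted. Angptl1, a secreted angiopoietin-like protein, had the largest fitted negative difference (-11.93 ± 2.96, adjusted p = 0.0384) but was at 12.8, 147 and 0.333 CPM in BAC depleted, so the lowest of these overlapped the other groups. Col14a1, a fibril-associated collagen, was at 106, 1440 and 8.17 CPM there (-7.73 ± 2.01, adjusted p = 0.045). Angptl1 lost its call in 13 of 20 alternative settings and Col14a1 in 14 of 21. Car3, a carbonic anhydrase of fat and muscle, was at 332, 30.7 and 115 CPM in BAC depleted and at most 0.582 CPM in BAC nondepleted (-11.63 ± 2.20), while replicate 2 of BM nonsorted held 58.0 CPM against 1.60 and 3.13 in its group.

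BAC nondepleted set 179 genes. It was low in 120 (9.48% of the called genes, beside 8.59% of all genes tested) and high in 59 (4.66%, beside 5.07%). The shares are near those of all genes, so these counts say little about the called genes. Sp7 (osterix), a transcription factor needed for osteoblast formation, was at 0.134, 0.509 and 1.22 CPM in BAC nondepleted, 22.4, 46.4 and 5.29 in BAC depleted, 189, 99.4 and 101 in BM sorted and 45.1, 91.0 and 91.9 in BM nonsorted. The 3 BAC nondepleted libraries lay below all others, and the difference was -4.56 ± 1.10 (adjusted p = 0.0345). Col1a1, the main collagen chain of bone, went the other way within the osteoblast list: it was at 5510, 3480 and 6460 CPM in BAC depleted against 10000 to 22000 CPM elsewhere (1.96 ± 0.45, adjusted p = 0.0295). Of 12 osteoblast genes, 1 was higher and 1 lower (8.33% each, beside 5.08% and 2.99% of all genes), so these counts say little about the list.

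Shroom2, a regulator of the cell cortex, had 3 counts in all of BAC nondepleted, and BAC depleted was 184-fold higher with a counting interval of 62.7 to 896. Svop, a synaptic vesicle protein, had 1 count there, and BAC depleted was 297-fold higher with an interval of 53 to 11800. These intervals cover counting error only. Both genes were at 2.68 CPM or more in each marrow library. Of the p53 targets and cell-cycle inhibitors, 2 of 14 were lower (14.3%, beside 2.99% of all genes) and 0 higher. Phlda3, an inhibitor of Akt, was at 59.6, 49.3 and 49.6 CPM in BAC nondepleted and at 109 to 167 CPM in the other 9 libraries (-1.18 ± 0.21, adjusted p = 0.0111). Nr4a2, an immediate-early nuclear receptor, was at 71.8, 41.5 and 50.2 CPM in BAC nondepleted against 6.79 to 21.4 CPM (1.85 ± 0.49, adjusted p = 0.0475).

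The marrow side set few genes, called or not. BM sorted and BM nonsorted set 2.37% and 0.395% of the called genes, beside 4.53% and 2.54% of all genes tested. Most of the called ones were low after sorting. Srgn (serglycin), the granule proteoglycan of blood cells, was at 0.302, 0.21 and 0.306 CPM in BM sorted and 33.3, 25.8 and 17.0 in BM nonsorted. In bone it was at 39.5, 11.1 and 61.4 CPM in BAC depleted and 70.3, 43.6 and 32.4 in BAC nondepleted, so the bone groups overlapped. The difference was -6.14 ± 0.86 (adjusted p = 0.00428), with a sort effect of -6.52 and a depletion effect of -0.38 that did not pass.

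Apoe, the lipid carrier apolipoprotein E, behaved alike at 11.4, 3.12 and 3.83 CPM in BM sorted and 215 to 264 CPM in BM nonsorted, while BAC depleted held 293, 274 and 21.1 CPM against 279 to 313 in BAC nondepleted. Its difference was -4.67 ± 1.11 (adjusted p = 0.0325). The chemokine Ccl6 was at 0.47, 0.18 and 0.123 CPM in BM sorted and at 1.69, 10.2 and 12.4 CPM in BAC depleted (-6.07 ± 1.03). Ugt1a7c, a glucuronosyltransferase, was at most 0.419 CPM in BM sorted and at least 5.94 CPM in every other library (-3.31 ± 0.54). The macrophage markers were low in BAC depleted too, at the sums given above, and their part in these 4 genes was not tested. Mmp9, a gelatinase of osteoclasts and other myeloid cells, was low throughout, with 1, 2 and 2 counts in BM sorted and 3.51, 4.1 and 7.23 CPM in BM nonsorted. BAC depleted held 2.19, 0.707 and 0.208 CPM and BAC nondepleted 0.503, 0.327 and 0.267. It fell with sorting (-6.46), while its depletion effect of 1.5 did not pass (adjusted p = 0.109). The difference was -7.96 ± 1.10 and rests on few counts in BM sorted.

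BM nonsorted set 5 genes, all named after the rule for the widest gaps or after their values were seen: Lbp, Azin2, Ppp1r3g, Ppm1e and Pla2g7. Lbp, which carries bacterial lipopolysaccharide to CD14, was at 14.9, 22.5 and 21.4 CPM in BM nonsorted, 65.0, 43.7 and 41.1 in BM sorted and between 80.0 and 124 CPM in the 6 bone libraries (1.23 ± 0.32, adjusted p = 0.0457). The gap for Azin2 was small, with 18.9 to 26.6 CPM in BM nonsorted and 24.9 to 37.5 CPM elsewhere, and its libraries overlapped.

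In the heat shock, interferon, sterol synthesis, smooth muscle, skeletal muscle and other haematopoietic lists 0 members passed in edgeR's test. These lists had 16, 18, 16, 15, 11 and 7 tested members. Of these, 5, 3, 0, 4, 4 and 3 were at an unadjusted p under 0.05, beside 4027 of all 15698 genes. With DESeq2, 3, 2, 0, 3, 3 and 2 were called, beside 1367 higher and 1083 lower of all 15698 genes. Acta2, smooth muscle actin, had a difference of 0.48 ± 0.72 (adjusted p = 0.721), at 3650 to 5360 CPM in the marrow libraries and 250 to 1030 CPM in the bone libraries. Of 16 lysosomal genes 1 was higher (6.25%, near the 5.08% of all genes), Gusb (0.71 ± 0.17, adjusted p = 0.0337), a glucuronidase that fell in both comparisons. The immediate-early list had 1 of 20 higher, Nr4a2 (5%, also near 5.08%), and 0 lower. Without replicate 1 of BAC depleted, however, 12 of the 20 were lower, beside 688 of the 16006 genes tested in that fit. Fos, a subunit of AP-1, was at 184, 2843 and 3111 CPM in BAC depleted and Egr1, a zinc-finger factor, at 338.9, 2328 and 3250 CPM, both lowest in replicate 1 and both chosen after their values were seen. Without replicate 1 of BAC depleted 4 of 16 heat shock genes were lower, beside the same 688 of 16006 genes. Without replicate 2 of BAC depleted, 7 of 16 sterol synthesis genes were higher, beside 956 of 16143 genes.

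**Figure D4:**
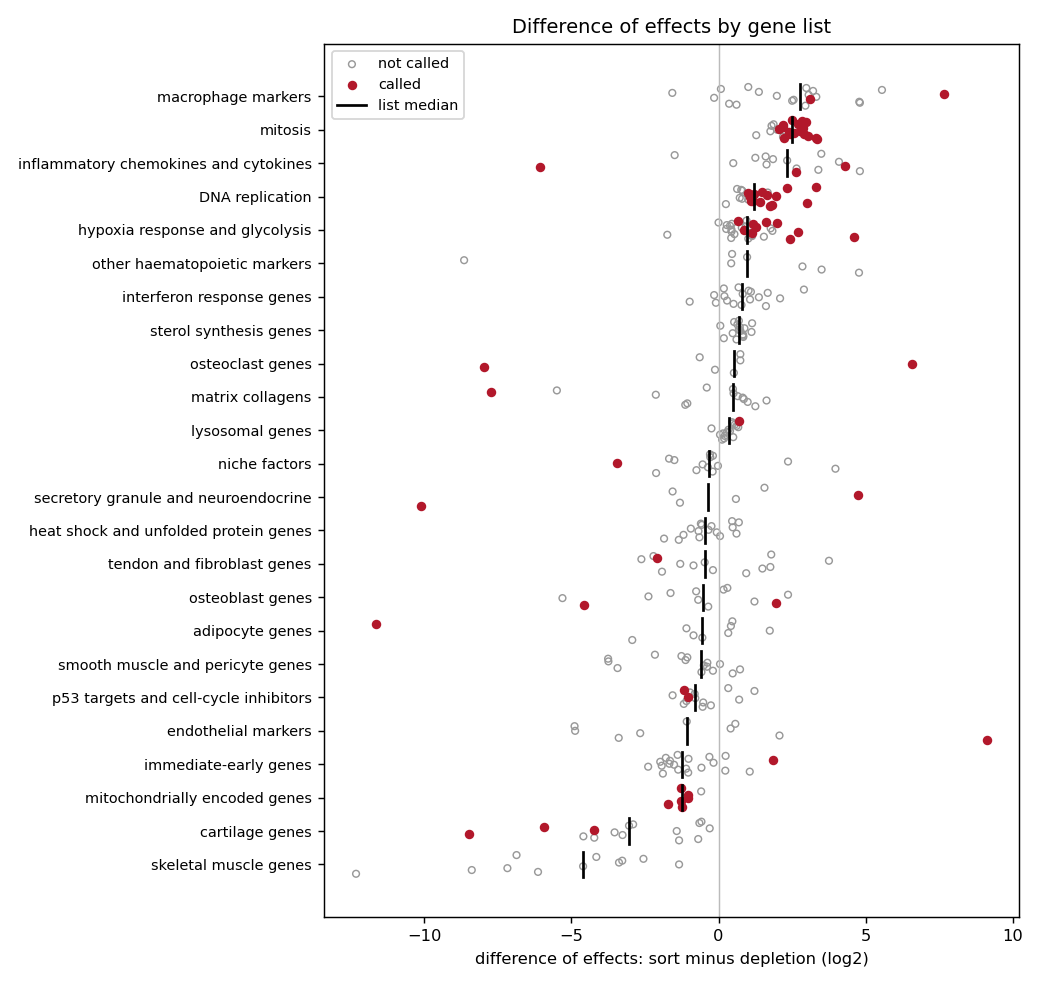
Difference of effects (x axis, log2) of each tested member of 24 gene lists (y axis); filled points are called genes and black bars are list medians. The mitosis members lie between 1.28 and 3.33, and the mitochondrially encoded members between -1.72 and -0.59.

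The count of genes called moved with the libraries. Without replicate 3 of BM sorted it was lowest, at 328 higher and 109 lower. The number of higher genes also fell by more than 1.5 times, to 446 without replicate 2 of BM sorted, to 389, 346 and 470 without replicate 1, 2 or 3 of BM nonsorted, and to 444 and 393 without replicate 1 or 2 of BAC nondepleted. Without replicate 1, 2 or 3 of BAC depleted it rose to 915 higher and 688 lower, 956 and 565, and 1020 and 592. The cause was not tested. In these fits the mitosis list had between 7 calls (without replicate 3 of BM sorted) and 25, the replication list between 7 and 15, the hypoxia and glycolysis list between 3 and 16, and the mitochondrially encoded list between 2 (without replicate 1 of BM sorted) and 6. At an adjusted p under 0.01 these lists had 3, 3, 1 and 2 calls, beside 189 higher and 68 lower of all 15698 genes tested. In the 12 fits that each left out 1 library, 397 of the 1266 genes were called every time, and BAC depleted set 62.2% of them. These 397 held 7 of the 19 mitosis genes, 6 of the 14 replication genes, 2 of the 6 mitochondrially encoded genes and 3 of the 10 hypoxia and glycolysis genes. Of the 41 genes chosen by the naming rule and called, 39 were still called without replicate 1 of BAC depleted (Gdf10 and Lbp were not), and 24 without replicate 3 of BM sorted. In the 12 fits, 23 of the 41 were called every time, among them Cd93, Egln3, Scg2, Birc5, Tk1, mt-Nd2, Srgn and Svop. The 18 that lost their call without at least 1 library were Angptl1, Apoe, Azin2, Car3, Car9, Col14a1, Col1a1, Col9a1, Fzd9, Gdf10, Gsn, Gusb, Il34, Lbp, Nr4a2, Pcsk2, Shroom2 and Sp7. Genes at the threshold itself were Prdm6 (-7.05), Ift81 (-0.68) and Rps16 (0.80) just inside, at an adjusted p that rounds to 0.05, and Rpl23 (0.92), Gm37800 (3.17) and Arl6ip6 (0.79) just outside, at 0.0501.

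**Figure D5:**
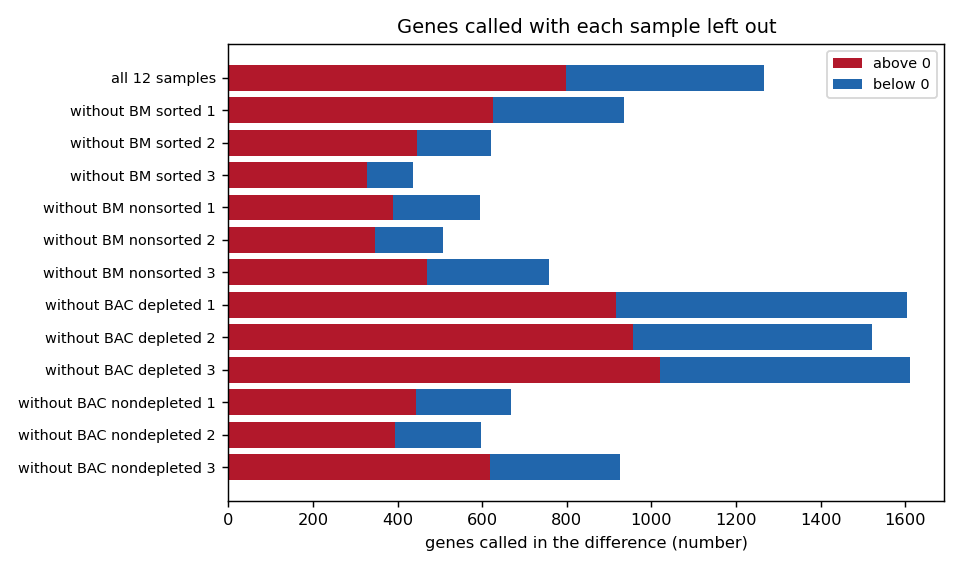
Number of genes called (x axis) with all 12 libraries and without each library in turn (y axis); red is a positive and blue a negative difference. The count rises when any BAC depleted library is left out and falls when any other library is left out.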

How the data were processed

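The authors deposited 1 table of raw read counts per gene for the 12 libraries. STAR 2.7.9a, featureCounts (Subread 2.0.1), MultiQC 1.7 and build GRCm39 are named, with no order or settings, per the submitters' processing notes. Annotation release and strandedness: not given in the sources used here. Values of antisense, overlapping or near-identical genes are therefore uncertain.

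From these counts, a model with a mean for each group was fitted to the 12 libraries together in edgeR 4.0.16 (R 4.3.3) with TMM scaling, filterByExpr on the groups and robust quasi-likelihood F tests. The model gave each gene 1 spread for all groups. BAC depleted varied most, with a median SD of log2 CPM of 0.327 against 0.174 to 0.184 in the other groups. Its tests thus share the tighter spread of those groups. Of 53819 entries, 22808 had 0 counts throughout and 15698 were tested, with 8 residual degrees of freedom and a common dispersion of 0.0969. Benjamini-Hochberg adjustment ran over every gene tested, and an adjusted p under 0.05 made a call. An SE is the size of a fitted value divided by the square root of its F statistic. Levels are CPM on TMM-scaled library sizes. Group means of log2 CPM used a prior count of 2, and fitted differences one of 0.125. A group with at most 3 counts over its libraries was treated as near the floor, where ratios are bounds or carry 95% counting intervals, which cover counting error only. Of the 1266 called genes, 72 had such a group.

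The naming rule took the 4 marker genes (Cd93, Egln3, Scg2, Birc5), the 8 largest positive and 8 largest negative differences among called genes with no group near the floor and at least 5 CPM in the highest group, the 3 widest gaps for each setting group, and the called extremes of each of 24 lists (the most abundant member where none was called). Predicted models, Rik clones, pseudogenes, Xist and Y-linked genes were left out. Members, lists and rule were chosen with earlier results of these data known. Alternatives used DESeq2 1.42.0 and limma 3.58.1. Promoters were matched by symbol to RefSeq (GRCm38.p6), a build other than that of the counts, and no gene coordinates of the counted build were used.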

Additional observations from a re-analysis of the deposited data

Results flagged for a closer look

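Each value here is a log2 difference between the purification effects in marrow and in bone that passed the test of the difference itself in edgeR's quasi-likelihood test. In all, 797 genes were higher and 469 lower. No explanation was weighed.

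With BAC depleted low, the differences were 9.13 for Cd93, 8.44 for Ctsc, 7.66 for Fcer1g, 7.63 for Slfn2, 6.26 for Alox5, 5.81 for Spn, 5.69 for Cd244a, 5.61 for Glipr1, 3.33 for Birc5, 3.30 for Tk1, 2.41 for Egln3 and 1.96 for Col1a1. With BAC depleted high, they were -11.93 for Angptl1, -10.09 for Scg2, -8.46 for Col9a1, -7.51 for Fzd9, -6.54 for Stk26, -6.47 for Col9a3, -5.71 for Gdf10, -3.45 for Il34, -2.10 for Gsn and -1.72 for mt-Nd2. With BAC nondepleted low, they were -7.73 for Col14a1, -6.90 for Svop, -6.57 for Shroom2, -4.56 for Sp7 and -1.18 for Phlda3, and with it high, 4.74 for Pcsk2, 4.60 for Car9 and 1.85 for Nr4a2. With BM sorted low, they were -6.14 for Srgn, -6.07 for Ccl6, -4.67 for Apoe and -3.31 for Ugt1a7c, and with BM nonsorted low, 1.23 for Lbp and 0.80 for Azin2. With no single group apart, they were -11.63 for Car3, -7.96 for Mmp9, 6.58 for Tnfrsf11a, 4.29 for Ccl7 and 0.71 for Gusb. The fitted values of Svop, Shroom2, Col9a1 and Tnfrsf11a depend on the prior count, because a group held 3 counts or fewer. Other large values also rest on few counts. BAC depleted held 4, 1 and 0 counts of Ctsc, 3, 3 and 0 of Cd244a and 0, 7 and 0 of Spn, and BAC nondepleted 1, 2 and 5 of Scg2.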

How the results depend on the processing

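Against 797 higher and 469 lower genes, 189 and 68 were called at an adjusted p under 0.01, and 1367 and 1083 with DESeq2's Wald test. Without a low-count filter 244 were lower. Leaving out each library in turn gave 328 to 1020 higher genes and 109 to 688 lower ones. The share of called genes set by BAC depleted, 58.9% in the report, was 62.0% without a filter, 53.9% with DESeq2, 50.6% with a gap of at least 1.5 times the range, and 62.8% with limma-voom and 1 weight per group, an alternative chosen after seeing the data. Leaving out each library gave 56.5% to 62.3%. The alternative with 1 weight per group called 598 higher and 393 lower genes. It called 21 mitosis, 8 replication, 10 hypoxia and glycolysis, 3 mitochondrially encoded and 0 macrophage genes. Of the 47 named genes, Ddx58, which was not called (0.18), ranged from -0.07 (without replicate 1 of BAC nondepleted, a change of direction) to 0.41 (without its replicate 3). None of the 41 called genes changed direction in the alternatives run; of these, 14 kept their call in every alternative and 27 lost it in at least 1. Scaling by DESeq2 size factors or upper quartiles, limma-voom and a filter at 5 CPM in 3 libraries kept both counts within 1.5 times.

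Whether replicate numbers pair the libraries is not stated in the labels. Deviations of same-numbered libraries from their group means correlated at -0.223, 0.215 and -0.00827 in marrow and 0.237, 0.0439 and 0.0711 in bone. Replicate 2 of BM sorted and replicates 1 and 3 of BAC depleted correlated best with their own number, and the others did not. With 3 libraries in each group, these correlations cannot decide whether same-numbered libraries share mice or cultures. Sex-linked RNA does differ between the bone libraries numbered 1. BAC depleted held 43406 Xist counts and no Ddx3y there, and BAC nondepleted 2 Xist counts and 138 CPM of Ddx3y. That pair was thus not drawn from the same mice, although the replicate block treats it as a pair. With the replicate block within each compartment, 239 genes were higher and 178 lower, and BAC depleted set 53.7%. The mitosis, replication, hypoxia and mitochondrially encoded lists then had 5, 4, 6 and 2 calls. Where a group held 3 counts or fewer, depth allows only a bound or a counting interval.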
